A study of Mus musculus with 5 samples.

Results

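The genes described here are the protein-coding genes of the deposited table that carry the Gene Ontology term mitochondrion among their cellular component terms. Of 82 such genes, 21 were left out, so 61 of 1489 listed genes were taken. The grounds were an annotation term for DNA-binding transcription factors, or the name, singly or in families such as solute carriers, keratins and interferon-induced genes. The rule itself uses the annotation and the names, and no measured value. The mouse macrophage line RAW264.7 gave 3 groups of RNA-seq libraries: 1 library of cells given LPS together with compound 13, a fungal metabolite, 2 libraries of cells given LPS alone (the LPS model) and 2 control libraries of cells given PBS. LPS comes from the wall of Gram-negative bacteria, and the receptor TLR4 detects it on macrophages. The methods of the cell model give LPS at 0.1 μg/ml, compound 13 at 10 μM and a harvest 24 h later, and the labels of the treated library give a code and the plural word compounds but no name, so its identity was taken from those methods. No source used here states that replicates were separate cultures, so the spread behind the p-values is that between libraries and may be technical, and the lone library with compound 13 has no replicate.

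Most proteins of mitochondria are encoded in the nucleus, made in the cytosol and imported. The matrix houses the TCA cycle, fatty acid oxidation and the translation of the few proteins the organelle encodes itself, the inner membrane carries the respiratory chain, and the outer membrane is where many death and signalling proteins dock. In macrophages that sense LPS, mitochondria are known to turn from ATP synthesis towards the making of signals and bactericidal molecules, with nitric oxide, reactive oxygen and itaconate as the best known products. An annotation to the organelle does not make a gene specific to it. Of the 61 genes, 26 also carried a term for the nucleus, 22 for the cytoplasm, 14 for the cytosol, 8 for the endoplasmic reticulum and 6 for the peroxisome, and 3 (Arg2, Clybl and Mmab) carried the mitochondrion term alone. More exact terms were rare: 9 genes were annotated to the inner membrane, 5 to the matrix and 3 to the outer membrane, and 47 to none of these.

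The core machinery of the organelle was thinly represented among the genes analysed. Of lists of 111 respiratory chain and ATP synthase genes, 29 genes of the TCA cycle and pyruvate use, 114 genes of the mitochondrial genome and its translation and 63 genes of mitochondrial dynamics, 1 gene each was listed (Coq10b, Pck2, Guf1 and Mpv17l), and of 58 genes of protein import, proteases and chaperones 0 were listed. No source used here gives the rule by which the submitters chose their genes, and nearly all tested genes differed with LPS, so these numbers describe the table and not the whole transcriptome.

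The files hold log2 FPKM, where FPKM is a fragment count scaled to exon length and depth. Depths recovered from these values were 17129000 reads for the library with compound 13, 16594000 and 16159000 for the LPS model and 16550000 and 17090000 for the control. Of 15 macrophage markers, 3 were listed (Cd14, Fcgr1 and Itgam) and their summed FPKM was 1440 with compound 13, 1410 and 1380 in the LPS model and 711 and 758 in the control. The 2 LPS model libraries stood apart from the other 3 in a set of genes. Over all listed genes, 92 had reads in each LPS model library and 0 in every other library. Of 14 epithelial markers, the 3 listed were keratins (Krt8, Krt18 and Krt19), with a summed FPKM of 0 with compound 13, 19.6 and 12.5 in the LPS model and 0 in both control libraries. Of 14 fibroblast and mesenchymal markers, 6 were listed, with a summed FPKM of 4.38 with compound 13, 9.32 and 8.69 in the LPS model and 0.584 and 0.516 in the control. Of 12 lymphocyte and 8 granulocyte markers 0 were listed. The part of such RNA in the results below was not tested, except where a value is given.

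The test took genes with an FPKM of at least 1 in 2 libraries, or in the compound 13 library. This left 46 of the 61 genes, among 1053 genes tested in all, and the other 15 are described by their reads at the end. Fold changes are differences on the log2(FPKM + 1) scale, which understates changes of low genes, and a gene is called at an adjusted p under 0.05 by limma over all 1053 genes. Src, Gstp3, Sqrdl, Arg2, Aldh1l2, Clu and Ptrf had an FPKM under 1 in both control libraries and passed through libraries with LPS, so the counts of members called are no support for a difference in these genes.

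The first comparison asked how LPS alone changed these genes. In the LPS model, 31 of the 46 genes were called higher than in the control and 12 lower, against a background of 72.7% of all tested genes called higher and 23.4% called lower. The median log2 fold change was 0.95 over the 46 genes and 0.96 over all tested genes, and the median absolute change was 1.04 against 1.09, so the group followed the table as a whole. The 46 values ran from −1.33 to 3.80. Less RNA per cell and fewer cells carrying it cannot be told apart in such bulk samples. The balance of higher and lower calls rests on the deposited scale: rescaling by the median of ratios over the listed genes moved the median of all tested genes to 0.04 and gave 17 members higher and 19 lower, and quantile normalization moved it to 0.13 and gave 18 and 18. Over all 1053 tested genes, the median of ratios gave 422 higher and 389 lower, and quantile normalization 443 and 348. Both rescalings take the listed genes as centred on no change.

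**Figure D1:**
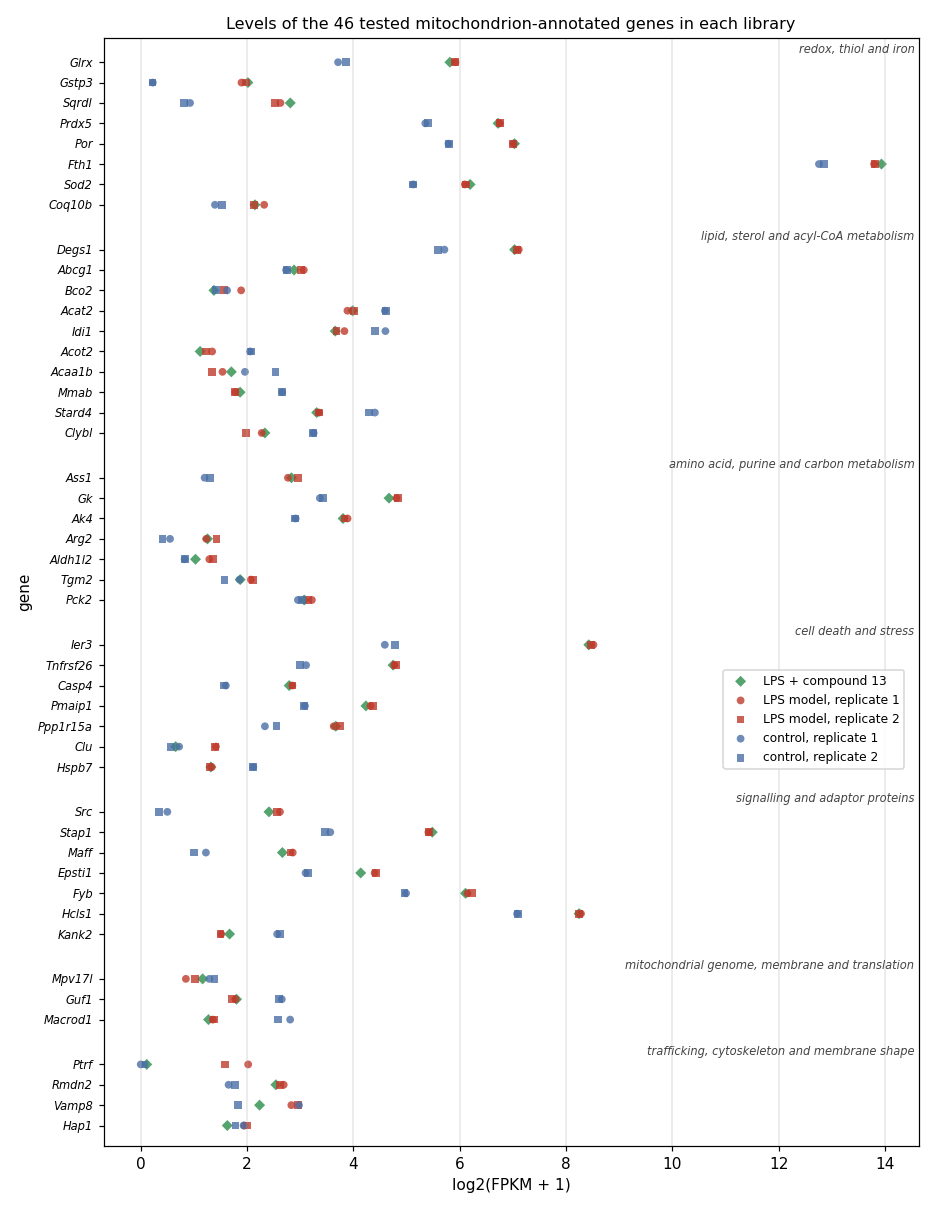
Level of each of the 46 tested genes, as log2(FPKM + 1) on the horizontal axis, in the library with LPS and compound 13 (green diamonds), the 2 LPS model libraries (red) and the 2 control libraries (blue), grouped by role. Green and red points lie close together in most rows and away from the blue ones, as for Ier3 at 344 FPKM with compound 13, 365 and 353 in the LPS model and 23.1 and 26.7 in the control, whereas the green points of Clu and Ptrf lie beside the blue ones.

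Genes of redox, thiol and iron chemistry were called higher in the LPS model in 8 of 8 tested members, with a median log2 fold change of 1.30, but in 4 (and 2 lower, median 0.14) with the median of ratios and in 4 (and 1 lower, median 0.12) with quantile normalization. This role and the others below were assigned after the values were seen, so counts by role support no change of a class. Glrx codes for glutaredoxin, which removes glutathione from protein thiols. It had an FPKM of 59.6 and 59.2 in the LPS model, against 12.1 and 13.6 in the control, a log2 fold change of 2.13 ± 0.06 (SE, limma adjusted p = 3.7e-06). Sqrdl, the inner membrane quinone oxidoreductase that oxidises hydrogen sulfide, had 5.18 and 4.77 FPKM in the LPS model, against 0.902 and 0.759 in the control (log2 fold change 1.71 ± 0.08). Gstp3, a glutathione transferase of the pi class, had 2.72 and 2.97 FPKM in the LPS model, against 0.170 and 0.165 in the control (1.72 ± 0.08), and its near-identical neighbours in that family may share reads with it. Prdx5, a peroxiredoxin found in mitochondria and peroxisomes, reached 107 FPKM in both LPS model libraries, against 39.9 and 41.4 in the control (1.38 ± 0.04). These 4 genes were called higher under both rescalings too. The ferritin heavy chain gene Fth1, whose product stores iron and which has many processed copies in the genome, and Sod2, the manganese superoxide dismutase of the mitochondrial matrix, sat near the shift of the whole table. Fth1 had an FPKM of 14230 and 14370 in the LPS model, against 6931 and 7408 in the control (1.00 ± 0.04, but −0.17 with median of ratios). Sod2 had 67.5 and 68.5 FPKM in the LPS model, against 33.9 and 34.0 in the control (0.98 ± 0.04, but −0.16 with median of ratios and −0.05 with quantile normalization). Por, the reductase that feeds electrons to cytochromes P450, rose by 1.21 on the log2 scale (−0.17 with quantile normalization), and Coq10b, which binds coenzyme Q in the inner membrane, by 0.76 (−0.08 with median of ratios).

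Genes of lipid, sterol and acyl-CoA metabolism went mostly the other way. Of 10 tested, 7 were called lower in the LPS model and 2 higher, with a median log2 fold change of −0.76, and rescaling gave 9 lower, with medians of −1.71 (median of ratios) and −1.53 (quantile). Acot2 lies on chromosome 12 (83987861 to 83993873 on the plus strand, GRCm38) and codes for a thioesterase that splits long-chain acyl-CoA in the matrix. It had 1.54 and 1.35 FPKM in the LPS model, against 3.16 and 3.22 in the control, with no overlap of the groups (log2 fold change −0.78 ± 0.08, limma adjusted p = 0.000291). Acot1 and other close copies may share reads with it. Clybl, the citramalyl-CoA lyase that acts on a breakdown product of itaconate, had 3.84 and 2.94 FPKM in the LPS model, against 8.53 and 8.45 in the control (−1.12 ± 0.11). Mmab, which makes the adenosyl form of vitamin B12 for methylmalonyl-CoA mutase, had 2.43 and 2.41 FPKM in the LPS model, against 5.33 and 5.29 in the control (−0.88 ± 0.07). Replicates of both genes stayed much nearer to each other than the groups did.

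Stard4, a cholesterol transfer protein, had 9.22 and 9.23 FPKM in the LPS model, against 20.2 and 18.7 in the control (−1.0 ± 0.06). Idi1, the isopentenyl diphosphate isomerase of the mevalonate route, fell by 0.75 and Acat2, which joins acetyl-CoA units at the start of that route, by 0.65 on the log2 scale. Acaa1b, a peroxisomal thiolase with a near-identical copy, had 1.90 and 1.54 FPKM in the LPS model, against 2.89 and 4.80 in the control (−0.81 ± 0.20, limma adjusted p = 0.0118). Its control libraries differed widely, and it was no longer called without either LPS model library (adjusted p = 0.0609 without replicate 1 and 0.103 without replicate 2). Degs1, the desaturase that completes ceramide, had the largest change of this group on the deposited scale, but not after rescaling (0.29 with the median of ratios, beside −2.1 for Clybl, and 0.18, adjusted p = 0.0538, with quantile normalization). It had 137 and 134 FPKM in the LPS model, against 51.4 and 47.2 in the control (1.44 ± 0.05). Abcg1, a cholesterol exporter, was higher by 0.30 (limma adjusted p = 0.00451) on the deposited scale and lower under both rescalings (−0.72 and −0.54), with an adjusted p of 0.0513 without LPS model replicate 1. Bco2, a carotenoid-splitting enzyme, had 2.70 and 1.96 FPKM in the LPS model and 2.08 and 1.66 FPKM in the control and did not pass the test (limma adjusted p = 0.206).

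Genes of amino acid, purine and carbon metabolism were called higher in the LPS model in 7 of 7 tested members, with a median of 0.85. Over all tested genes 72.7% were called higher, with a median of 0.96. For these 7 genes the median of ratios gave 3 higher and 2 lower (median −0.1). Quantile normalization gave 2 higher and 1 lower (median 0.1). Ass1, argininosuccinate synthase, regenerates arginine from the citrulline that nitric oxide synthase leaves. Its FPKM was 5.82 and 6.76 in the LPS model, against 1.30 and 1.48 in the control (log2 fold change 1.61 ± 0.09, limma adjusted p = 3.16e-05). Arg2, the mitochondrial arginase that draws on the same arginine, had 1.35 and 1.69 FPKM in the LPS model, against 0.465 and 0.328 in the control (0.85 ± 0.11). Gk, glycerol kinase, had 27.1 and 27.6 FPKM in the LPS model, against 9.34 and 9.82 in the control (1.42 ± 0.05). All 3 genes were well apart between the groups on the deposited scale. Arg2 was no longer called with quantile normalization (0.20, limma adjusted p = 0.156). Ak4, an adenylate kinase of the matrix, was higher by 0.96, Aldh1l2, which oxidises formyl-tetrahydrofolate in mitochondria, by 0.49, Tgm2, a transglutaminase, by 0.38 and Pck2, the mitochondrial phosphoenolpyruvate carboxykinase, by 0.20. These 4 changed sign with the median of ratios (−0.10, −0.12, −0.49 and −0.84), and Aldh1l2, Tgm2 and Pck2 also under quantile normalization. Tgm2 was no longer called without control replicate 2 (limma adjusted p = 0.0694) or either LPS model library (0.101 and 0.129), and Pck2 without control replicate 1 (0.0878) or either LPS model library (0.162 and 0.0842).

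Cell death and stress genes held the largest change of all 46 on the log2(FPKM + 1) scale, that of Ier3. On reads, Ptrf had a larger ratio to the control (102). Src (14.8) and Gstp3 (14.6) stood near Ier3 (14.4), with overlapping counting intervals. Gstp3 had 3 reads in each control library, and its reads are approximate. Ier3, an early response gene driven by NF-kB whose product limits cell death, lies on chromosome 17 (35821684 to 35822923 on the plus strand, GRCm38). It had 365 and 353 FPKM in the LPS model, against 23.1 and 26.7 in the control, a log2 fold change of 3.80 ± 0.07 (limma adjusted p = 1.75e-06). Tnfrsf26, a TNF receptor family member, had 26.3 and 26.8 FPKM in the LPS model, against 7.63 and 6.98 in the control (1.73 ± 0.06). Casp4, the inflammatory caspase that senses LPS inside the cell (caspase 11 of the mouse), had 6.22 and 6.23 FPKM in the LPS model, against 2.03 and 1.97 in the control (1.27 ± 0.06). Pmaip1, the BH3-only protein Noxa that promotes death at the outer membrane, was higher by 1.27. Ppp1r15a, which directs a phosphatase to eIF2α after stress, was higher by 1.24 (0.22, limma adjusted p = 0.0965, with the median of ratios). Hspb7, a small heat shock protein, was the only one of the 7 tested members called lower, with 1.52 and 1.45 FPKM in the LPS model, against 3.34 and 3.32 in the control (−0.80 ± 0.07). The remaining member, Clu, is described with compound 13. Rescaling gave 4 higher and 1 lower by the median of ratios and 5 and 1 by quantile normalization.

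Among signalling and adaptor genes, 6 of 7 were called higher in the LPS model and 1 lower, with a median of 1.29, and rescaling gave 4 and 1 by the median of ratios and 5 and 2 by quantile normalization. Src, a tyrosine kinase that is also found at the inner membrane, had 5.14 and 4.90 FPKM in the LPS model, against 0.414 and 0.268 in the control (log2 fold change 2.17 ± 0.09, limma adjusted p = 9.65e-06). Stap1, an adaptor of tyrosine kinases, had 41.6 and 41.8 FPKM in the LPS model, against 10.8 and 10.1 in the control (1.90 ± 0.05). Maff, a small Maf protein that pairs with factors such as NRF2, had 6.26 and 6.04 FPKM in the LPS model, against 1.34 and 0.993 in the control (1.73 ± 0.10). Replicates of these 3 genes were close and the groups well apart. Epsti1, an interferon-responsive gene, was higher by 1.29, Fyb, an adaptor of immune cells, by 1.22 and Hcls1, a regulator of actin, by 1.18 (Hcls1 was at −0.41 with quantile normalization). Kank2, a scaffold of focal adhesions, fell, with 1.85 and 1.83 FPKM in the LPS model, against 4.92 and 5.17 in the control (−1.09 ± 0.07).

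The 3 genes grouped here as mitochondrial genome, membrane and translation were all called lower in the LPS model, on the deposited scale and under both rescalings. This role, like the others, was formed after the values were seen. It joins genes of unlike function, so the count supports no fall of a class. Macrod1, a mitochondrial hydrolase that removes ADP-ribose from proteins, had the largest fall of the 46 genes, with 1.56 and 1.60 FPKM in the LPS model, against 6.02 and 5.0 in the control (log2 fold change −1.33 ± 0.10, limma adjusted p = 8e-05). Guf1, a GTPase that assists mitochondrial ribosomes, had 2.44 and 2.27 FPKM in the LPS model, against 5.29 and 5.08 in the control (−0.88 ± 0.07). Mpv17l, on chromosome 16 (13903161 to 13949619 on the plus strand, GRCm38), codes for a membrane protein related to MPV17 that has been placed in peroxisomes and mitochondria. It had 0.802 and 1.02 FPKM in the LPS model, against 1.45 and 1.62 in the control (−0.41 ± 0.10, limma adjusted p = 0.00939). The groups did not overlap, but without control replicate 2 the adjusted p was 0.0796. Behind these values stand 50 and 62 reads of Mpv17l in the LPS model, against 90 and 104 reads in the control.

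Of 4 tested genes of trafficking, cytoskeleton and membrane shape, 2 were called higher in the LPS model and 0 lower. These were Ptrf, described with compound 13, and Rmdn2, a microtubule-associated protein, with 5.45 and 5.15 FPKM in the LPS model, against 2.14 and 2.43 in the control (log2 fold change 0.94, but 0.03 with the median of ratios). Hap1 and Vamp8 did not pass the test (limma adjusted p = 0.238 and 0.246). For these 4 genes rescaling gave 1 higher and 1 lower by the median of ratios and 2 and 1 by quantile normalization.

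By place in the organelle, 6 of 7 tested inner membrane genes were called higher in the LPS model and 1 lower (Guf1), with a median log2 fold change of 1.22, but 3 and 2 (median 0.07) with the median of ratios and 4 and 1 (median 0.14) with quantile normalization. Both tested outer membrane genes were higher (Gk and Ppp1r15a), and 1 of them with the median of ratios. Of 3 tested matrix genes, Ak4 was higher, though not after either rescaling, and Acot2 and Guf1 were lower. These places follow the annotation alone: Sod2, named above as a matrix enzyme, is counted with the inner membrane, and Guf1 is counted in both. The counts are therefore no contrast between matrix and inner membrane. Of 4 tested genes that also carried a peroxisome term, Prdx5 was higher and Acaa1b, Idi1 and Mpv17l lower, in these counts under both rescalings too. The 35 tested genes with none of the 3 mitochondrial terms gave 22 higher and 10 lower. Sets of 2 to 7 genes are too small for more than these counts.

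Gene lists of mitochondrial function, written with earlier results of these data known, also take in genes outside the 61. Their counts in the LPS model are on the deposited scale, where 72.7% of all tested genes were called higher and 23.4% lower. They were not counted under the rescalings. Of 62 genes of amino acid, one-carbon and nucleotide metabolism, 4 were tested and 4 called higher. Of 32 genes of redox and peroxide defence, 5 were tested, 4 called higher and 1 lower. The 2 tested of 24 heme, iron and sulfur genes were higher, and the 1 tested of 55 fatty acid and acyl-CoA genes, Acot2, was lower. Of 20 sterol, steroid and vitamin genes, 4 were tested, 0 called higher and 3 lower. Lists of death, immune and signalling genes had the most tested genes, but the innate immune list held 0 of the 61 genes. Of 56 apoptosis and mitophagy genes, 12 were tested, 11 called higher and 1 lower. Of 38 innate immune adaptors and interferon-linked proteins, 13 were tested, 12 called higher and 1 lower, and of 64 signalling proteins with a mitochondrial annotation, 10 were tested, 9 called higher and 1 lower. With compound 13, in 1 library, the median log2 fold changes of these last 3 lists were −0.07, −0.25 and −0.14. Over all tested genes the median was −0.08.

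**Figure D2:**
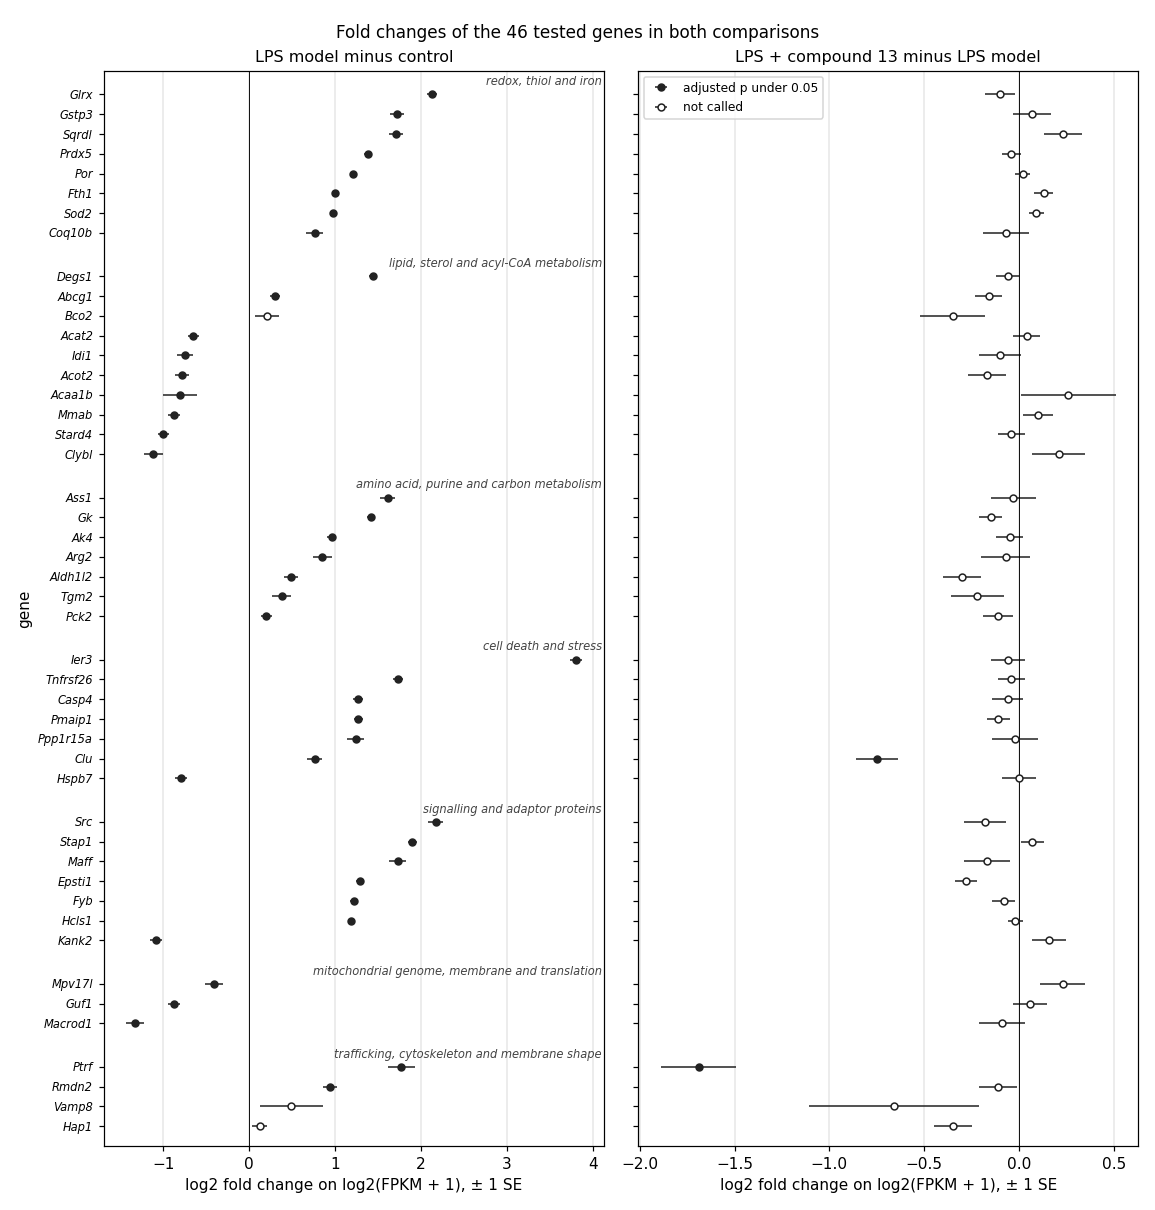
Log2 fold change of the 46 tested genes with its standard error, on log2(FPKM + 1), for the LPS model minus the control (left) and for LPS with compound 13 minus the LPS model (right), grouped by role. Filled circles mark an adjusted p under 0.05: 43 genes on the left (31 higher and 12 lower, but 17 and 19 with the median of ratios) and 2 on the right, Clu and Ptrf.

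The second comparison asked which of these genes compound 13 moved in the presence of LPS. With compound 13, 0 of the 46 genes were called higher than in the LPS model and 2 lower, Clu and Ptrf, against 0.38% and 7.22% of all tested genes. At an unadjusted p under 0.05 stood 6 of the 46 genes, 5 with lower and 1 with higher values (Fth1), beside 264 of 1053 genes. Limma-voom on the recovered reads called 1 member higher (Fth1) and 3 lower, beside 12 higher and 154 lower of 1048 genes. The median log2 fold change was −0.06 over the 46 genes and −0.08 over all tested genes, and the median absolute change was 0.10 against 0.13. Of the 46 genes, 28 (60.9%) were below both LPS model libraries in the library with compound 13, 6 (13%) between them and 12 (26.1%) above both, beside 62.5%, 18.1% and 19.4% of all tested genes. Both comparisons use the same LPS model libraries, so their fold changes are not independent.

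Clu codes for clusterin, a secreted chaperone with forms inside the cell that bind death proteins at mitochondria. It lies on chromosome 14 (65968483 to 65981548 on the plus strand, GRCm38). Its FPKM was 0.577 with compound 13, 1.67 and 1.64 in the LPS model and 0.650 and 0.476 in the control, from 34, 95, 91, 37 and 28 reads in that order. Clu passed the filter through the LPS model libraries alone, the group in which it is high, and with no filter its adjusted p for compound 13 was 0.0391. The library with compound 13 lay between the control libraries and below both LPS model libraries. The log2 fold change was −0.75 ± 0.11 for compound 13 (limma adjusted p = 0.0321) and 0.76 ± 0.09 for LPS (limma adjusted p = 0.000596). On reads, the level with compound 13 was 0.350 of that in the LPS model, with an exact 95% counting interval of 0.235 to 0.506. The call for compound 13 was lost with a pseudocount of 0.1 (−1.37, adjusted p = 0.0614), with median of ratios (−0.59, adjusted p = 0.0908) and with quantile normalization (−0.57, adjusted p = 0.102), and the call for LPS under both rescalings (0.20 and 0.14).

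Ptrf codes for cavin 1, which coats caveolae together with caveolin 1, and lies on chromosome 11 (100956733 to 100970887 on the minus strand, GRCm38). It had 5 reads with compound 13 (0.0814 FPKM), 182 and 116 in the LPS model (3.06 and 2.0 FPKM) and 0 and 3 in the control. The LPS model libraries stood alone, and Ptrf passed the filter through them, the group in which it is high (adjusted p = 0.0316 for compound 13 with no filter). The log2 fold change was −1.69 ± 0.20 for compound 13 (limma adjusted p = 0.0194) and 1.77 ± 0.16 for LPS (limma adjusted p = 0.000179). On reads the ratio to the LPS model was 0.0321 with compound 13 (exact 95% interval 0.0103 to 0.0757), and the LPS model stood at 102 times the control (34.6 to 498, counting error only). The call for compound 13 was lost with median of ratios (−1.38, adjusted p = 0.0527) and quantile normalization (−1.32, adjusted p = 0.0782).

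Caveolin 1 and keratin genes had the same libraries in common. Cav1 had 0 reads with compound 13, 75 and 58 in the LPS model and 0 in both control libraries. Krt8 had 0 reads with compound 13, 361 and 196 in the LPS model and 0 in both control libraries. LPS model replicate 1 held more reads than replicate 2 for Ptrf, Cav1 and Krt8, whereas Clu had nearly equal reads in both and also had reads in every control library. Without either LPS model library, Clu and Ptrf had an FPKM of at least 1 in a single library and could not be tested, so both calls need both of these libraries. What part RNA of other cells had in the 2 calls was not tested.

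**Figure D3:**
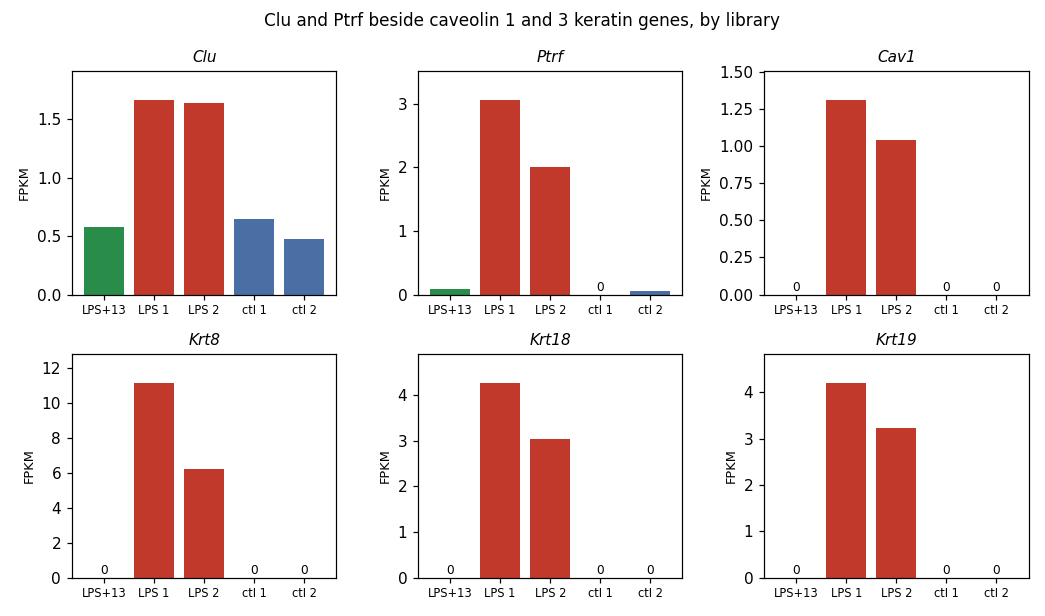
FPKM of Clu, Ptrf, Cav1, Krt8, Krt18 and Krt19 in each library, from left to right LPS with compound 13 (green), LPS model replicates 1 and 2 (red) and control replicates 1 and 2 (blue), each panel with its own axis from 0. Cav1 and the keratins are at 0 outside the LPS model, Ptrf has at most 5 reads there, and Clu has 28 to 37 reads in the other 3 libraries.

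No other member passed the test with compound 13. Epsti1 came nearest, with 16.6 FPKM with compound 13, against 20.1 and 20.5 in the LPS model (−0.28 ± 0.06, limma adjusted p = 0.0693), and it was called in the fit of only these groups (adjusted p = 0.0469). Fth1 had 15660 FPKM with compound 13, against 14230 and 14370 in the LPS model (0.13 ± 0.05, limma adjusted p = 0.197, but 0.00978 in the fit of only these groups). Hap1, a trafficking protein that binds huntingtin, had 2.09 FPKM with compound 13, against 2.87 and 2.99 in the LPS model (−0.35 ± 0.10, limma adjusted p = 0.125). In each of these 3 genes the library with compound 13 lay outside the range of the LPS model pair. Vamp8, a SNARE protein of late endosomes, had 3.71 FPKM with compound 13, 6.13 and 6.77 in the LPS model and 6.87 and 2.56 in the control, so the control libraries lay on either side of the rest (limma adjusted p = 0.419 with compound 13, but 0.021 in the fit of only these groups, and 0.246 for LPS). Without control replicate 1, Vamp8 was called higher in the LPS model by 1.07 (limma adjusted p = 0.00021).

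Other members named for their change under LPS did not pass the test with compound 13. Ier3 had 344 FPKM with compound 13, against 365 and 353 in the LPS model (−0.06 ± 0.09). Acot2 had 1.17 FPKM with compound 13, against 1.54 and 1.35 in the LPS model (−0.17 ± 0.10, limma adjusted p = 0.334). Mpv17l had 1.24 FPKM with compound 13, against 0.802 and 1.02 in the LPS model (0.23 ± 0.12, limma adjusted p = 0.301), above both of them and below the control, with a read ratio of 1.37 (exact 95% counting interval 1.01 to 1.84). Macrod1 had 1.42 FPKM with compound 13, against 1.56 and 1.60 in the LPS model (−0.09), and Sqrdl 6.03 FPKM with compound 13, against 5.18 and 4.77 in the LPS model (0.23 ± 0.10, limma adjusted p = 0.238). By role, the median log2 fold change with compound 13 ran from −0.11 for amino acid, purine and carbon metabolism to 0.06 for the 3 genome, membrane and translation genes, apart from −0.50 for the 4 trafficking genes, of which Ptrf is one. With 1 treated library, a p that misses the threshold does not show that these genes did not differ.

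The 15 genes under the filter were counted but not tested. Of these, 6 had reads in the 2 LPS model libraries and 0 in the other 3 libraries: Cryab (13 and 7 reads), Ddah1 (9 and 8), Decr1 (16 and 13), Eya2 (6 and 8), Mgst1 (19 and 5) and Rps6ka6 (10 and 11). These 6 code for a small heat shock protein, an enzyme that clears methylated arginines, a reductase of fatty acid oxidation, a phosphatase that acts with transcription factors, a membrane glutathione transferase and a ribosomal S6 kinase. With 3 reads set as the floor for a group at 0, their level in the LPS model was at least 4.79-fold (Eya2) to at least 9.93-fold (Decr1) higher than in the control, and with compound 13 at least 2.44-fold (Eya2) to at least 5.06-fold (Decr1) lower than in the LPS model. These bounds take the reads in the LPS model as exact. With their sampling error, the exact 95% counting interval of the LPS ratio started at 3.41 (Eya2) to 7.57 (Decr1), and that of the ratio with compound 13 reached up to 0.576 (Eya2) to 0.259 (Decr1). These 6 genes share the library pattern of the keratins, and whether they come from the same RNA was not tested. Among all 1489 listed genes, 92 had this pattern, these 6 included. Asking for 10 reads or more in both LPS model libraries, and no more than 3 in any other, gave 77 listed genes. Of the 61 members, 2 were among these 77 (Decr1 and Rps6ka6). Mmp3, Urah and Ppl also had 0 reads in both control libraries, with 4 reads of Mmp3 with compound 13 and 5 and 8 in the LPS model.

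**Figure D4:**
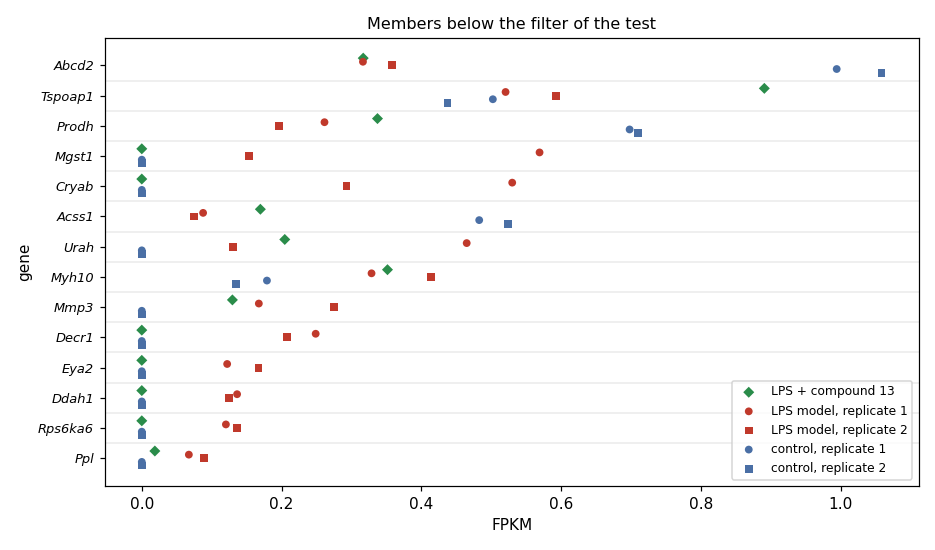
FPKM of genes under the filter in each library, with LPS and compound 13 in green, the LPS model in red and the control in blue. Abcd2, Prodh and Acss1 are highest in the control, Tspoap1 is highest with compound 13 (0.890 FPKM), and 6 genes are at 0 outside the LPS model.

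Of the other low genes, 3 had more reads in the control. Acss1, the mitochondrial acetyl-CoA synthetase of the matrix, had 12 reads with compound 13, 6 and 5 in the LPS model and 33 and 37 in the control, so that the LPS model stood at 0.161 of the control (exact 95% counting interval 0.0771 to 0.307). Prodh, proline dehydrogenase, had 0.337 FPKM with compound 13, 0.261 and 0.197 in the LPS model and 0.698 and 0.710 in the control. Abcd2, a peroxisomal fatty acid transporter, had 0.317 FPKM with compound 13, 0.316 and 0.358 in the LPS model and 0.994 and 1.06 in the control. In all 3 the library with compound 13 lay nearer to the LPS model than to the control. Tspoap1, which binds the outer membrane protein TSPO, had 145 reads with compound 13, 82 and 91 in the LPS model and 79 and 71 in the control, a ratio of 1.60 to the LPS model (exact 95% counting interval 1.28 to 2.01, with no replicate of the treatment). Myh10, a non-muscle myosin, had 63 reads with compound 13, 57 and 70 in the LPS model and 31 and 24 in the control.

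Promoters were looked at for letters that the choice of genes did not use. RefSeq windows of 300 bases, from 250 before to 50 after a transcript start (GRCm38.p6), matched 43 of the 61 genes. The NF-kB letters GGGANTTCC, GGGNCTTCC or GGGACTTTC, on either strand and partly overlapping each other in what they match, stood in windows of 4 of the 43 genes (9.3%; Ak4, Casp4, Ppp1r15a and Prodh), beside 4.04% of 27025 genes in all. The CRE letters TGACGTCA stood in 2 (4.65%; Maff and Ppp1r15a), beside 2.03%, the interferon letters GAAANNGAA in 6 (14.0%), beside 9.76%, and the E-box CACGTG in 7 (16.3%), beside 8.09%. The NRF1 letters GCGCATGCG and the ERR letters TCAAGGTCA, named for factors known to drive mitochondrial genes, stood in 0 of 43, beside 1.95% and 0.466% of all genes. These are matches of letters, not sites, and 4 and 2 genes are few. The windows below belong to 3 members called higher in the LPS model. They are shown because they hold the NF-kB letters (Casp4) or the CRE letters (Maff and Ppp1r15a), and only these are in capitals. Other matches were left in lower case: the NF-kB letters and the interferon letters in Ppp1r15a, and the E-box in Maff. The windows are given from 5′ to 3′ on the strand of the gene: Casp4 at chr9:5308599-5308898 (plus), Maff at chr15:79347270-79347569 (plus) and Ppp1r15a at chr7:45526219-45526518 (minus).
Casp4: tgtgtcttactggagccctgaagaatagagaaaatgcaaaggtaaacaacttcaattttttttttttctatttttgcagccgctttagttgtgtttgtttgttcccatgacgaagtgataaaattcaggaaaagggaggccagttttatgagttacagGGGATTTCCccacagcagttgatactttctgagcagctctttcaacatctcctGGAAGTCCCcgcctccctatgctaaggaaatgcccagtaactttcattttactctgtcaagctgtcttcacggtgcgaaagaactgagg
Maff: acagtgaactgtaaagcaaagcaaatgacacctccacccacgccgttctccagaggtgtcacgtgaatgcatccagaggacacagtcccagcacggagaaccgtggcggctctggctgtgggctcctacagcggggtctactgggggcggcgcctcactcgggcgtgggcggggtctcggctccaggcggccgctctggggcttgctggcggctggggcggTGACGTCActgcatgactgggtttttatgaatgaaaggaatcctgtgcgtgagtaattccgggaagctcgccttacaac
Ppp1r15a: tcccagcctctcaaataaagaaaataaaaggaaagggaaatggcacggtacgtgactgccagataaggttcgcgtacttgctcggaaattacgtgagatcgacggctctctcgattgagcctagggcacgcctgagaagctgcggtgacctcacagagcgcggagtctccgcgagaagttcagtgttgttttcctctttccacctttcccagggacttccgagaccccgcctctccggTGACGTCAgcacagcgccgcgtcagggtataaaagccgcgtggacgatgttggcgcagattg
The Casp4 window holds the letters at 92 and 39 bases before the start (the nearer match on the opposite strand), Maff holds them at 29 and Ppp1r15a at 12 bases before it. In these 3 genes the log2 fold change in the LPS model was 1.27, 1.73 and 1.24 on the deposited scale. Ppp1r15a was at 0.22 with the median of ratios and no longer called (limma adjusted p = 0.0965). Prodh, which also holds the NF-kB letters, was lower in the LPS model, at 0.328 of the control on reads. Whether the letters bear on any of these changes was not tested.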

How the data were processed

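The authors deposited 1 table of log2 FPKM for 1489 genes in 5 libraries, with identifiers, annotation terms and GRCm38 coordinates. As tools and build, the notes of the submitters list SAMtools 1.4, Trimmomatic 0.32, HISAT2 2.1.0, DESeq2 and mm10, with no role or order. The counter, annotation release, strand setting and gene selection were not given in the sources used here, so overlapping genes and close copies may share reads. In the deposited log2 values 562 are exactly 0 and were read as no read. For 191 rows biological process terms were withheld, and this branch was searched only for the transcription factor term of the exclusion.

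Depth was recovered by trying 5000000 to 25000000 reads in steps of 1000. At the chosen depths 97.67 to 98.86% of values under 100 reads, from exon lengths of GENCODE release M21, were whole reads (tolerance 0.1), beside no more than 51.45% elsewhere. Of 1489 identifiers 1484 were in that annotation. Reads of genes whose coordinates differ there (15 of the 61) are approximate. Intervals and floors cover counting error only, and the PCR products counted carried no stated molecular identifiers.

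Tests used limma 3.58.1 in R 4.3.3 on log2(FPKM + 1) with a trend, 3 groups and 5 libraries in 1 fit, with 2 residual and 2.97 prior degrees of freedom, and Benjamini-Hochberg adjustment over 1053 genes. The lone library with compound 13 was assumed to vary like the others. The fit was also run on simulated data in which most genes did not change. These data differ from that setting, so the run checks the code and does not bear on the calls here. Other steps used Python 3.11.15. The members, lists and tests were chosen with earlier results of these data known, and the 7 roles were assigned after the values were seen. Genes named by rule were Clu, Acot2, Mpv17l, members called with compound 13, the 12 largest increases and 8 largest decreases under LPS where the mean FPKM was at least 1, the largest change of each role and place, and the 5 low members with the most reads; the others were named after their values were seen.

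Alternatives were 2 rescalings, limma-voom on recovered reads, a pseudocount of 0.1, an FPKM of 10 as filter or none, moderation without the trend, only the compared groups in the fit, a replicate block and leaving out each replicate. Promoter windows are from RefSeq, and 2 genes were matched by an older symbol. A planned count of charged residues in the proteins was not run. The values of 1 member under the filter are not reported here.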

Additional observations from a re-analysis of the deposited data

How the results depend on the processing

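Calls for LPS depended on the scale. Over all tested genes, 766 higher and 246 lower became 393 and 91 of 494 genes with a filter at an FPKM of 10. They became 422 and 389 with the median of ratios and 443 and 348 with quantile normalization, of 1053 genes. The 31 members higher and 12 lower became 16 and 3 with a filter at an FPKM of 10 (fewer genes tested), 17 and 19 with the median of ratios and 18 and 18 with quantile normalization, whereas the pseudocount, the replicate block, the fit without a trend, only the groups compared and limma-voom gave 31 and 12. Values that changed sign under the median of ratios were −0.72 (Abcg1), −0.10 (Ak4), −0.12 (Aldh1l2), −0.59 (Bco2), −0.08 (Coq10b), −0.17 (Fth1), −0.75 (Hap1), −0.84 (Pck2), −0.16 (Sod2), −0.49 (Tgm2) and −0.48 (Vamp8). Under quantile normalization they were −0.54 (Abcg1), −0.11 (Aldh1l2), −0.44 (Bco2), −0.60 (Hap1), −0.41 (Hcls1), −0.62 (Pck2), −0.17 (Por), −0.05 (Sod2), −0.29 (Tgm2) and −0.29 (Vamp8). Without control replicate 2, Vamp8 was at −0.08. Leaving out 1 replicate gave 26 to 31 members higher and 11 to 12 lower. The cause was not tested.

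With compound 13, the 0 higher and 2 lower became 0 and 1 with a pseudocount of 0.1, 0 and 3 with no filter, 0 and 0 with the filter at an FPKM of 10 and both rescalings, 1 and 4 with only the groups compared and 1 and 3 with limma-voom. Leaving out 1 replicate gave 0 to 1 higher and 0 to 4 lower, with 0 and 0 without LPS model replicate 1 or 2, where Clu and Ptrf no longer passed the filter, and 1 and 4 without control replicate 1 or 2.

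Replicate numbers were not taken as pairs, since differences between replicates 1 and 2 correlated at −0.022 between control and LPS model over 1053 genes and only 2 pairs exist. The replicate block gave 31 higher and 12 lower for LPS and 0 and 2 for compound 13.

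Depth limited the 15 members under the filter, of which 6 had 0 reads outside the LPS model, and the single library with compound 13 limited every value of the second comparison.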
